A study of Mus musculus with 4 samples.

Results

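Scavenger receptors are surface proteins with which macrophages bind and take in modified lipoproteins, dying cells, bacteria and released haemoglobin. They belong to classes of unrelated structure: class A holds collagen-like trimers such as MSR1 and MARCO, class B the lipid receptors CD36 and SCARB1, and other classes the haemoglobin receptor CD163, the stabilins, the mannose receptor, the lectin-like OLR1 and the mucin-like CD68. The 10 genes described here, Msr1, Marco, Cd36, Scarb1, Cd68, Cd163, Stab1, Mrc1, Olr1 and the secreted Cd5l, were taken as a list by gene symbol out of 19505 genes measured. The rule uses symbols only, though the list was proposed with earlier results of these data known. The array annotation names a probe set (the group of probes that reads 1 transcript cluster) for 9 of them, 1 for each gene, and names none for Cd68, which was not analysed here.

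The arrays hold RNA of macrophages grown for 8 days from femoral marrow in RPMI that held fetal calf serum and L929-conditioned medium, which supplies the growth factor CSF1. The WT group and the Hem1 KO group each hold 2 arrays from 2 distinct mice, and the strain, sex, age and exact deletion are not given in the sources used here. Hem1, encoded by Nckap1l, is the blood-cell subunit of the WAVE complex, which drives branching of actin filaments. Values are log2 intensities, so that a difference of 1 is 2-fold, and differences are Hem1 KO minus WT with the standard error (SE) and 95% interval of limma, a linear model that borrows its spread from all genes.

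On all 4 arrays Nckap1l was far above background. It was lower in the Hem1 KO arrays (11.37 and 11.11 in WT against 10.04 and 9.62, adjusted p = 0.0467 by limma). This call ended among genes above background on at least 2 arrays (adjusted p = 0.0866). The Nckap1l difference of -1.41 ran from -1.62 (without Hem1 KO replicate 1) to -1.20 (without Hem1 KO replicate 2) with 1 array left out. Background was taken as the 95th percentile of 1450 chemosensory receptor genes (smell, pheromone and taste) per array and lay between 5.38 and 6.04. The 10 macrophage markers, Adgre1 and Csf1r among them, were above it on all 4 arrays, with a mean level of 11.43 and 11.81 in WT and of 11.32 and 11.38 in Hem1 KO cultures. Stromal cells were marked by 9 measured genes, 6 of them higher without Hem1, with a mean level of 6.58 and 7.04 in WT and of 8.11 and 8.68 in Hem1 KO cultures, while Lum and Lepr lay at or below background throughout; without WT replicate 2, 3 were called. Marker lists of endothelial cells (Cdh5 higher, Vwf lower) and of basophils and mast cells (Mcpt8 higher) held calls, and those of adipocytes, neutrophils, dendritic cells, monocytes, megakaryocytes, erythroid cells, B cells, and T and NK cells held 0 by limma, with 1, the adipocyte marker Fabp4, at an unadjusted p under 0.05. Of the 8 basophil and mast cell markers, 5 lay at or below background on all arrays, and the list median was -0.01. The median differences of some of the marker lists changed sign with single arrays. That of monocyte markers ran from -0.06 (without WT replicate 2) to 1.20 (without Hem1 KO replicate 2). Adipocyte markers ran from -0.36 (without Hem1 KO replicate 1) to 0.44 (without Hem1 KO replicate 2), and dendritic cell markers from -0.30 to 0.30 without the same arrays. The difference of Vwf, -1.52, was also -1.52 without WT replicate 1 and -1.52 without WT replicate 2. Vwf lay below background on Hem1 KO replicate 1 and only 0.25 above it on Hem1 KO replicate 2. The call of Cdh5 ended after quantile normalization (adjusted p = 0.0738 by limma). In such mixed RNA, fewer cells of a type and less RNA per cell cannot be told apart.

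Promoter sequence is shown for Cd36, Cd5l and Cd163, the members with the most negative differences, and for Mrc1, whose arrays overlapped between the genotypes. Each line gives the 250 bases before the RefSeq transcription start (build GRCm38.p6), 5′ to 3′ on the strand of the gene, with capitals for GAGGAAG, the core bound by the myeloid factor PU.1, on either strand.
Cd36 (chr5:17835897-17836146, minus strand): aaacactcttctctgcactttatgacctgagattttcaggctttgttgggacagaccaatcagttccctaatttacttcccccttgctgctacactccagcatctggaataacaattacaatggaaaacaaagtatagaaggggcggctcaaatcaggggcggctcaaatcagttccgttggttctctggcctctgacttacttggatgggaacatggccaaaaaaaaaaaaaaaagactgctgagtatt
Cd5l (chr3:87357631-87357880, plus strand): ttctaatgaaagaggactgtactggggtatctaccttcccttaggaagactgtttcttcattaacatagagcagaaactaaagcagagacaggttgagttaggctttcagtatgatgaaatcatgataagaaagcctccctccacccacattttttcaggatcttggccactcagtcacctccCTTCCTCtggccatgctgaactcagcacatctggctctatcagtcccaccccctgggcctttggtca
Cd163 (chr6:124304401-124304650, plus strand): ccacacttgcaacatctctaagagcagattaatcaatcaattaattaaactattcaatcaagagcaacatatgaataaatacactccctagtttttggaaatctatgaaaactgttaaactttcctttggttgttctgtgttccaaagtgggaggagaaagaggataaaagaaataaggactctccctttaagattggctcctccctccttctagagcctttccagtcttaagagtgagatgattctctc
Mrc1 (chr2:14229164-14229413, plus strand): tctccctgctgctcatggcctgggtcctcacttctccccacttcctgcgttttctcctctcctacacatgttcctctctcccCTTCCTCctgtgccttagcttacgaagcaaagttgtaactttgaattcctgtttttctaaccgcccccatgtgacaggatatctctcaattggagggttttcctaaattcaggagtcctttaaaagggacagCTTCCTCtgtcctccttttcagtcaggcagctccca

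The Cd5l stretch held 1 match, at -67 to -61 from the start, and the Mrc1 stretch 2, at -168 to -162 and -36 to -30. Marco had 1 match, at -146 to -140. Of 32851 stretches of this length for mouse genes, 10.6% held GAGGAAG, and 3 of the 8 members with an entry did (no entry for Msr1 and Scarb1). No member held the direct repeat of AGGTCA with 1 free base between, which PPAR-RXR binds (0.0335% of all stretches), that with 4 free bases, which LXR-RXR binds (0.0152%), or the E-box CACGTG (6.02%). The AP-1 letters TGANTCA (6.75%) stood in Cd68 at -149 to -143 and -24 to -18 and in Olr1 at -60 to -54. These motifs do not overlap one another, both strands were searched, and a match is only a description of letters.

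Without Hem1, 0 of the 9 measured scavenger receptor genes passed an adjusted p of 0.05 in limma, and 1, Cd36, had an unadjusted p under 0.05. Over all genes 1.61% passed the adjusted threshold, 1.48% higher and 0.133% lower, so that few calls would be met among 9 genes, and 1.57% were lower at an unadjusted p under 0.05. Differences ran from -0.89 for Cd36 to 0.10 for Stab1, with a median of -0.46 against 0.01 over all genes and -0.05 over the 11779 genes above background on all 4 arrays. For 4 members, Cd36, Cd5l, Cd163 and Scarb1, both Hem1 KO arrays lay below both WT arrays, and for none above. Over all genes 13.3% lay apart in this direction, and 19.9% of those above background on all 4 arrays. The smallest difference called for any gene was 1.39 in size, or 2.62-fold, so that changes of the size seen in these members were not detectable as calls in this fit.

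**Figure D1:**
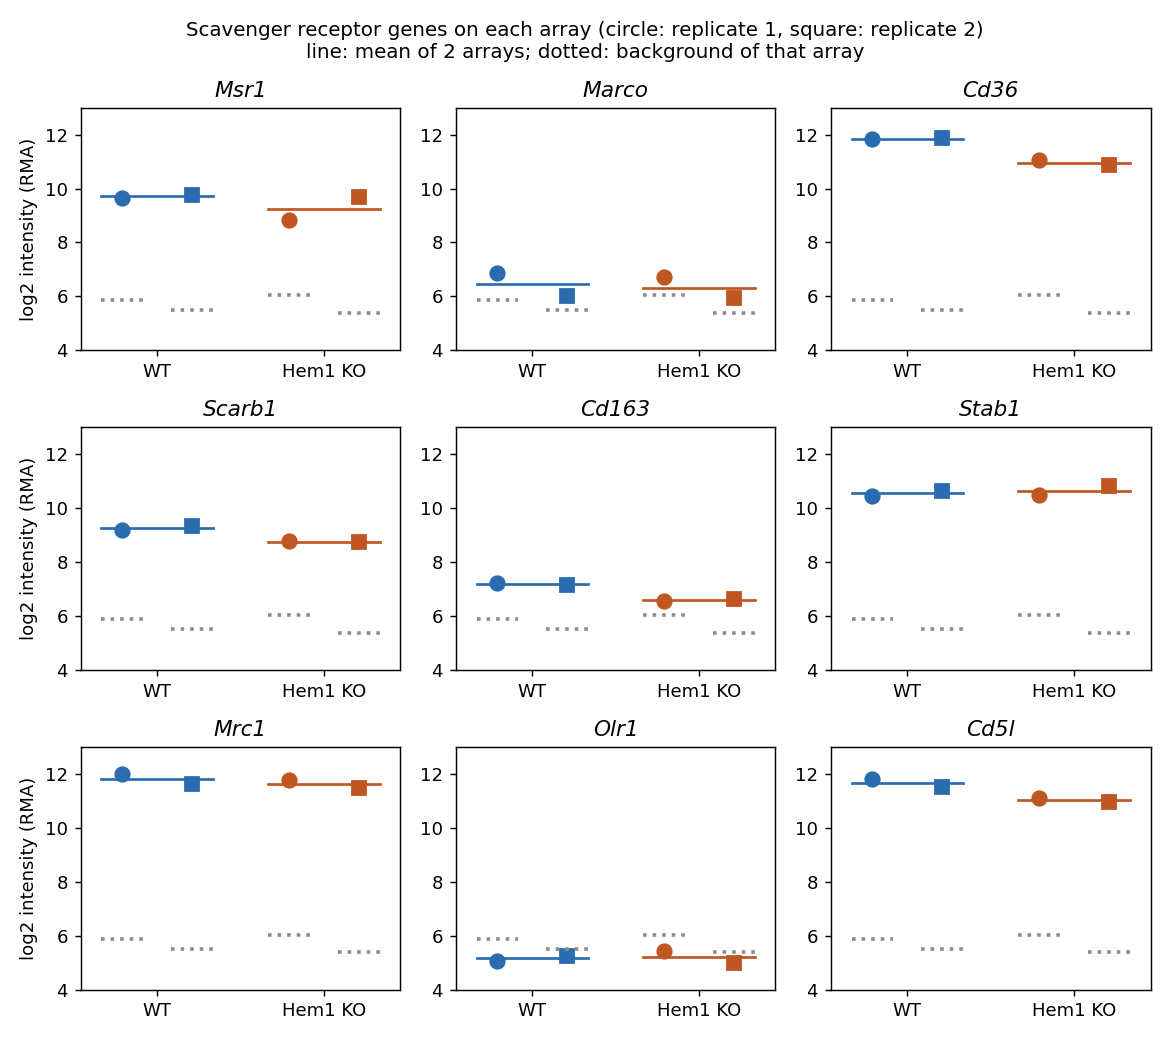
Log2 intensity (RMA) of 9 scavenger receptor genes on the 2 WT (blue) and 2 Hem1 KO (orange) arrays, with circles for replicate 1, squares for replicate 2, lines for the means of 2 arrays and dotted lines for each array's background. The arrays of the genotypes do not overlap for Cd36, Scarb1, Cd163 and Cd5l, and Olr1 lies below background on all 4.

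Among class B receptors, which take up lipids, Cd36 had the most negative difference of the members. CD36 binds oxidised LDL and long-chain fatty acids and helps in the uptake of apoptotic cells. It read 11.83 and 11.86 in WT and, in Hem1 KO cultures, 11.04 and 10.88. The WT arrays were 0.03 apart, the Hem1 KO arrays 0.15, and every Hem1 KO array lay below every WT array. The difference of -0.89 (SE 0.31, 95% interval -1.55 to -0.22, or from 2.94-fold to 1.16-fold lower) had an adjusted p of 0.423 by limma, and 0.861% of all genes had a lower one. When the borrowed spread was allowed to follow brightness, Cd36 passed (adjusted p = 1.01e-05), as did 1.05% of all genes in the lower direction. Leaving out single arrays gave -0.96 to -0.81.

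Markers of other cells that carry CD36 gave these values. The 7 measured adipocyte markers had a median difference of 0.03 with 5 above 0, Adipoq and Lep lay at or below background on all arrays, and the lowest was Fabp4, which macrophages also make (-1.34, adjusted p = 0.240). The 10 endothelial markers had a median of -0.01, with Cdh5 higher and Vwf lower (-1.52), and Tek and Stab2 at or below background on all arrays. Cdh5 lay below background on both WT arrays, so that only a bound of at least 1.86-fold higher can be given for it. The 5 measured megakaryocyte and platelet markers had a median difference of 0.03. The part of these cells in Cd36 was not tested. Set against the mean of the 10 macrophage markers on the same array, Cd36 stood at 0.02 and 0.44 in WT and at -0.34 and -0.43 in Hem1 KO cultures, a difference of -0.62 without overlap (adjusted p = 0.408 by limma).

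Scarb1 encodes SR-BI, a receptor that exchanges cholesterol with HDL. It read 9.18 and 9.32 in WT and, in Hem1 KO cultures, 8.77 and 8.74, again with no overlap. The difference was -0.50 (SE 0.31, 95% interval -1.16 to 0.17, unadjusted p = 0.134 by limma, not called). Against the macrophage markers it was -0.23, and the arrays of the genotypes then overlapped.

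The class A receptors Msr1 and Marco overlapped between the genotypes. MSR1 binds acetylated and oxidised LDL and bacterial surfaces. It read 9.65 and 9.77 in WT and, in Hem1 KO cultures, 8.83 and 9.68, so that the lower Hem1 KO mean came from replicate 1. The difference of -0.46 (SE 0.35, 95% interval -1.21 to 0.30) was -0.03 without Hem1 KO replicate 1 and -0.88 without Hem1 KO replicate 2.

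MARCO binds bacteria and inhaled particles and is best known from alveolar and splenic marginal zone macrophages. It read 6.86 and 6.03 in WT and, in Hem1 KO cultures, 6.71 and 5.93, at most 0.99 above background. Replicate 1 exceeded replicate 2 in both genotypes, by 0.84 in WT and 0.78 in Hem1 KO cultures. The medians of all genes differed the same way, at 6.82 and 6.95 on the arrays of replicate 1 and 6.42 and 6.49 on those of replicate 2, and relative to them Marco stood at 0.05 and -0.39 in WT and at -0.24 and -0.56 in Hem1 KO cultures. The genotype difference of -0.13 (SE 0.38, 95% interval -0.95 to 0.69) turned to 0.29 without WT replicate 1 and to 0.26 without Hem1 KO replicate 2.

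Cd163 and Cd5l are the members made of scavenger receptor cysteine-rich domains alone or beside a membrane anchor. CD163 takes up haptoglobin with haemoglobin. It read 7.22 and 7.15 in WT and, in Hem1 KO cultures, 6.56 and 6.62, only 0.52 above background on Hem1 KO replicate 1. Cd163 lay below a background taken from negative control probe sets on every array. Its replicates were 0.07 apart in each genotype and the genotypes did not overlap, with a difference of -0.59 (SE 0.31, 95% interval -1.26 to 0.07, unadjusted p = 0.0773 by limma, not called).

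CD5L, also called AIM, is a secreted protein of tissue macrophages that binds lipids and supports macrophage survival, and its gene is a target of LXR. It read 11.81 and 11.53 in WT and, in Hem1 KO cultures, 11.09 and 10.96, without overlap. The difference was -0.64 (SE 0.31, 95% interval -1.32 to 0.04, unadjusted p = 0.0624 by limma, not called), and of the settings tried it passed in 1, in which the spread followed brightness (adjusted p = 0.00687). Against the macrophage markers Cd5l differed by -0.37 and Cd163 by -0.32, both without overlap.

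The remaining receptors lay close to 0. MRC1, the mannose receptor and a marker of alternatively activated macrophages, read 11.98 and 11.61 in WT and, in Hem1 KO cultures, 11.76 and 11.46. Its difference was -0.18 (95% interval -0.88 to 0.51, or from 1.84-fold lower to 1.42-fold higher), and 0.0033 without WT replicate 1. Relative to the median of each array Mrc1 stood at 5.16 and 5.19 in WT and at 4.80 and 4.98 in Hem1 KO cultures, without overlap, as did 24.7% of all genes in this direction on that scale. The array medians ran from 6.42 to 6.95, so that a quantile step in the deposited values is not visible. Stabilin-1, which clears SPARC, modified LDL and dying cells, read 10.45 and 10.64 in WT and, in Hem1 KO cultures, 10.48 and 10.82. The difference of Stab1 was 0.10 (95% interval -0.59 to 0.78) and -0.0025 when arrays were centred on their medians. Stab2, its endothelial counterpart, lay below background on all 4 arrays.

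OLR1, or LOX-1, a receptor for oxidised LDL known mainly from endothelium, was below background on every array. It read 5.05 and 5.26 in WT and, in Hem1 KO cultures, 5.45 and 4.99, so that these arrays give only an upper bound for it and no fold.

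**Figure D2:**
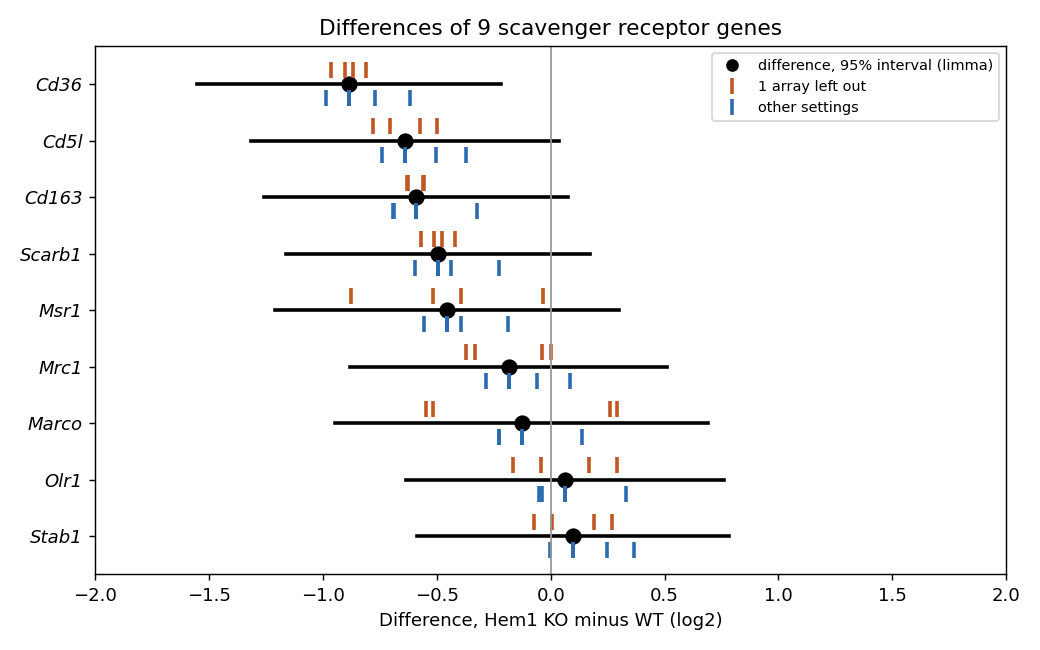
Difference between Hem1 KO and WT (log2) for 9 scavenger receptor genes, with points for the values as deposited, black lines for limma's 95% intervals from 2 arrays per genotype, orange ticks for fits with 1 array left out and blue ticks for other settings. The interval of Cd36 alone lies wholly under 0 (-1.55 to -0.22), and the ticks of Marco, Mrc1, Olr1 and Stab1 fall on both sides of 0.

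The members differ in how bright their probe sets are, and dim and bright genes differ in spread. Of the 9 members, 8 lay above background on all arrays. Of the genes above background on all arrays, 0.153% were called lower. The plot of difference against brightness shows the members among all genes.

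**Figure D3:**
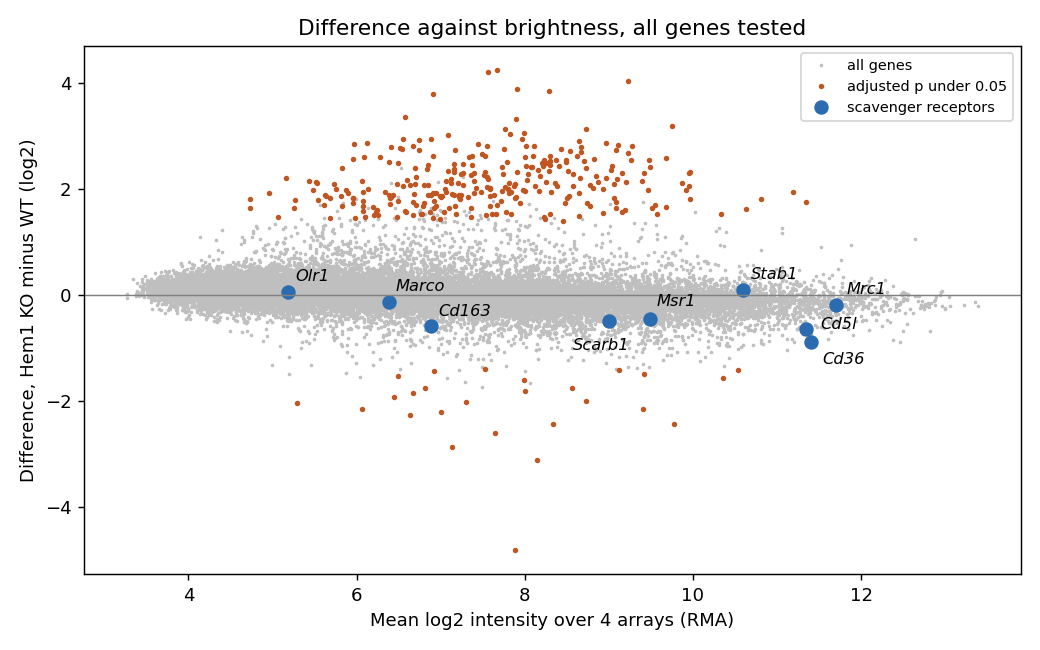
Difference between Hem1 KO and WT (log2) against the mean log2 intensity (RMA) over 4 arrays, with 1 grey point for each of 19505 genes, orange for genes at an adjusted p under 0.05 by limma and blue for the 9 scavenger receptor genes. Below Cd36 (-0.89) lie 0.861% of all genes, and all called genes lie at least 1.39 from 0.

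Other scavenger receptors did not share one direction. Of 18 measured, 1 was called higher and 0 lower by limma, with 2 higher before adjustment (p under 0.05) and a list median of 0.09 that ran from -0.15 (without WT replicate 2) to 0.25 (without Hem1 KO replicate 2). The called gene was Scarf2, a class F receptor, which read 7.08 and 6.71 in WT and, in Hem1 KO cultures, 9.52 and 8.84. It was 4.88-fold higher (log2 difference 2.29, SE 0.34, adjusted p = 0.00301 by limma). Scara3, a class A receptor, read 6.70 and 6.73 against 7.99 and 7.60 (1.08, adjusted p = 0.193). Stromal markers rose beside both (median 1.94, 6 of 9 called). Whether stromal cells supplied these transcripts was not tested.

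Of 17 measured genes that handle lipid after its uptake, 2 fell, 0 rose and 15 were not called by limma. All 17 lay above background on all arrays. In 12 both Hem1 KO arrays lay below both WT arrays, as in 13.3% of all genes and 19.9% of those above background on all arrays. A difference under 0 was seen in 16 (Rxra, the partner of LXR and PPAR, stood at 0.18). The median was -0.58 (from -0.85 without Hem1 KO replicate 1 to -0.42 without WT replicate 1). Over all genes 48.2% lay under 0, and 57.8% of those above background on all arrays. Nr1h3, the oxysterol receptor LXR alpha, read 8.98 and 8.82 in WT and, in Hem1 KO cultures, 7.47 and 6.72, 3.49-fold lower (-1.80, SE 0.34, adjusted p = 0.0139 by limma). Lipoprotein lipase, Lpl, was 2.83-fold lower (-1.50, adjusted p = 0.0336 by limma), and its difference was -1.27 without WT replicate 2. The call of Lpl ended after quantile normalization (adjusted p = 0.0574). Both calls ended when only genes above background on at least 2 arrays were tested (adjusted p = 0.0579 for Nr1h3 and 0.0744 for Lpl). The count of genes called lower was 9 with the spread that follows brightness.

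Values near the threshold stood in the same list. Abcg1, a cholesterol exporter and LXR target, read 8.21 and 8.20 against 7.15 and 6.82 (-1.22, adjusted p = 0.0961). Pparg, the fatty acid sensor known to drive Cd36, read 10.25 and 9.52 in WT and, in Hem1 KO cultures, 9.37 and 8.56, without overlap (-0.92, SE 0.37, adjusted p = 0.691). Both were named with their values in view. Markers of osteoclasts, which form from the same precursors, had a median difference of -0.64: 3 of 8 were lower, Dcstamp, Atp6v0d2 and Mmp9, and 3 lay above 0, Ctsk at most (0.65). Without WT replicate 2 the difference of Mmp9 was -1.45 in place of -1.75. Quantile normalization ended the calls of Mmp9 and Atp6v0d2 (adjusted p = 0.0574 and 0.133 by limma), as did the filter on dim genes (0.0508 and 0.117). The part of such cells in the lipid genes was not tested.

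Around Cd163, the 15 measured genes of haem and iron handling held 0 calls by limma and 0 at an unadjusted p under 0.05, with a median of -0.18 (from -0.30 without WT replicate 2 to -0.04 without WT replicate 1). With the spread that follows brightness 1 was called higher. Haem oxygenase 1, Hmox1, which breaks down the haem that CD163 brings in, read 10.09 and 10.07 in WT and, in Hem1 KO cultures, 10.52 and 10.24 (0.30, SE 0.31). Those with the smallest p were haptoglobin, Hp, with 7.52 and 5.59 in WT and, in Hem1 KO cultures, 9.38 and 6.73 (1.50, SE 0.71), and the iron exporter Slc40a1 (-0.48). Spic, a factor of red pulp macrophages, read 8.70 and 4.93 in WT and, in Hem1 KO cultures, 7.60 and 5.68, so that its replicates were further apart than its genotypes.

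Of 15 measured signalling partners of CD36 and class A receptors, 1 was higher and 0 lower, with a median of -0.28 (0.01 without WT replicate 1). The called gene, Gulp1, encodes an adaptor of engulfment receptors and read 6.24 and 5.88 in WT and, in Hem1 KO cultures, 8.42 and 7.93 (4.33-fold, adjusted p = 0.00376 by limma), beside the stromal markers (median 1.94). Whether stromal cells supplied the Gulp1 transcripts was not tested. The 19 genes of the endocytosis machinery held 0 calls by limma, with 1 higher at an unadjusted p under 0.05. The gene at the unadjusted p was Cav1, which lay at or below background on all arrays. The next smallest p belonged to Rab7, a late endosome GTPase (-0.22). The median of this list was -0.06.

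Of 13 measured transcription regulators of the members, 2 were lower and 0 higher, with a median of -0.17 that was 0.14 without Hem1 KO replicate 2. With the spread that follows brightness 3 were lower. As reported they were Nr1h3, which this list shares with the lipid genes as it does Pparg, and Egr2, a factor of alternative activation (10.01 and 10.93 against 8.82 and 7.84, -2.14, SE 0.40, adjusted p = 0.0132 by limma). With 1 array left out the difference of Egr2 ran from -2.63 (without Hem1 KO replicate 1) to -1.65 (without Hem1 KO replicate 2). The call of Egr2 ended after quantile normalization (adjusted p = 0.0978) and among genes above background on at least 2 arrays (0.0894). Spi1, which encodes PU.1, read 11.98 and 11.85 in WT and, in Hem1 KO cultures, 11.77 and 11.64 (-0.21, SE 0.31).

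**Figure D4:**
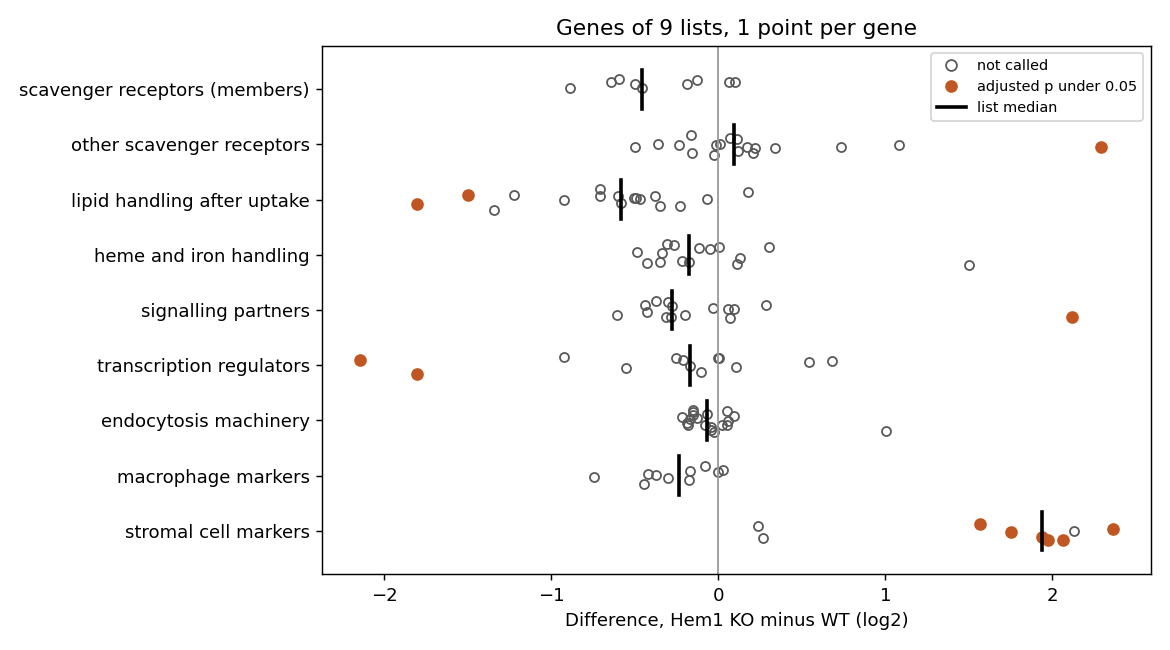
Difference between Hem1 KO and WT (log2) for each measured gene of 9 lists, with filled points for genes at an adjusted p under 0.05 by limma, open points for the others and bars for list medians (vertical jitter carries no value). The medians stand at -0.46 for the scavenger receptors, -0.58 for lipid handling, -0.24 for macrophage markers and 1.94 for stromal markers.

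The macrophage markers themselves had a median difference under 0. Limma called 0 of 10, with 1, the immunoglobulin receptor gene Fcgr1, at an unadjusted p under 0.05 (-0.74) and 1 called lower with the spread that follows brightness, while 9 lay under 0 and the median was -0.24 (from -0.46 without WT replicate 2 to -0.04 without WT replicate 1). Relative to their mean the median over the scavenger receptors was -0.19, in place of -0.46, and Cd36, Cd5l and Cd163 still had no overlap between the genotypes, as did 3.77% of all genes in this direction on that scale. Whether the share of macrophages in the cultures differed was not tested.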

How the data were processed

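The deposited table holds log2 intensities that the authors made with RMA, per the submitters' processing notes, which give no version or settings. The log2 scale was read from the values. The table has 29129 probe sets and controls, of which 19572 name 1 gene, 0 name several and 9557 name none in the platform annotation. For 55 genes with several probe sets the brightest by mean over 4 arrays was kept, giving 19505 genes, which were fitted together with limma 3.58.1 in R 4.3.3 (lmFit, eBayes, genotype as the only term, two-sided, Benjamini-Hochberg over all genes, threshold 0.05, 11.2 prior degrees of freedom). The fit was tested on simulated arrays. The number of arrays limits precision, and an exact permutation test of 2 against 2 cannot go below 0.333. The members, the lists and the tests were chosen with earlier results of these data known. Named are the members, Nckap1l, and per list its called genes or, with none, the 2 with the smallest p; others were chosen after their values were seen, among them Hmox1, Spic, Spi1, Scara3, Stab2, Abcg1, Pparg and Fabp4. Alternatives left out each array, used the replicate number as a block, rescaled the arrays, filtered dim genes, changed the prior, the threshold or the probe set rule, and, added after the data were seen, centred arrays on macrophage markers. Protein sequences were not used here.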

Additional observations from a re-analysis of the deposited data

How the results depend on the processing

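The count of members called was 0 in all settings but 2: it was 1 (Cd36, adjusted p = 0.0276) with the replicate block and 2 (Cd36 and Cd5l) with a prior that follows intensity. The labels do not say that replicate numbers pair mice, and the deviations of same-numbered arrays correlated at 0.241 over genes in only 2 pairs, so that pairing is not established. With the replicate block 620 genes were called higher and 199 lower, against 288 and 26, and 5 of the lipid genes were called lower, while the haem, endocytosis and monocyte lists gave 1 higher each, the other scavenger receptors 2 higher and the adipocyte list 1 lower. The filter on genes above background gave 174 higher and 8 lower, centring on medians 70 lower, quantile normalization 16 lower and the intensity trend 205 lower. Leaving out single arrays gave 185 to 545 higher and 26 to 101 lower. The members' median was -0.56 after centring on medians, which moved the median of all genes from 0.01 to -0.09, and -0.19 after centring on macrophage markers; leaving out arrays gave -0.51 to -0.42. Of the 8 members above background, 7 lay under 0 as deposited (48.2% of all genes and 57.8% of those above background on all arrays). It was 8 after centring on medians, which lowers every difference by the same amount (63.4% of all genes), and 7 after quantile normalization (55.1% of all genes). With 1 array left out Marco ran from -0.55 to 0.29, Mrc1 from -0.37 to 0.0033, Olr1 from -0.16 to 0.29 and Stab1 from -0.073 to 0.27. Stab1 was -0.0025 and Olr1 -0.037 after centring on medians, Olr1 -0.052 after quantile normalization, and Marco 0.14 and Mrc1 0.083 against macrophage markers. Olr1 is below background, so that its sign and size carry no order. The cause was not tested. Cd36, Cd5l, Cd163, Scarb1 and Msr1 kept a negative difference in all 12 settings. The replicate block, the changed prior and the probe set rules leave each member's difference as it was. So does the dim-gene filter for the 8 members it keeps, with a median of -0.48, but it removes Olr1. Only leaving out arrays or rescaling them could change a sign. With the 95th percentile of 5222 negative control probe sets as background, which lay between 8.04 and 8.94, 6 members were above it on each array. Cd163, Marco and Olr1 lay below it on every array, although Cd163 and Marco were above the chemosensory background.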
